A study of Mus musculus with 9 samples.

Results

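A set of 10 genes that mark macrophages and other myeloid cells in bulk liver RNA, Adgre1, Csf1r, Cd68, Lyz2, Mpeg1, Ptprc, Spi1, Ms4a7, Aif1 and Laptm5, were followed liver by liver. They were taken by gene symbol from the deposited table, and 10 of 10 were found among its 17442 genes. RNA was sequenced from the livers of 9 male C57BL/6 mice, 4 of genotype Msr1+/+ (wild type) and 5 of genotype Msr1-/-, and 1 library was made per animal. Msr1 encodes macrophage scavenger receptor 1, which binds and internalises modified lipoproteins. Both genotypes had been fed a high fat-cholesterol diet for 16 weeks and carry the label NAFLD (non-alcoholic fatty liver disease), so no comparison here is with a liver on another diet. The labels give neither the age of the mice nor the way the deletion was made. The comparison asks how the liver differs without the receptor after this diet, and here how far the genes of its myeloid cells differ.

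Macrophages of the liver come from resident Kupffer cells, which line the sinusoids, and from blood monocytes that enter the tissue and mature there. In fatty liver disease, monocyte-derived macrophages are known to accumulate beside the Kupffer cells and in part replace them. Development of both depends on PU.1, a transcription factor of the ETS family, and on signalling of colony-stimulating factor 1 through its receptor. The 10 genes cover these steps: Spi1 encodes PU.1, Csf1r the receptor, Ptprc the leukocyte surface phosphatase CD45, Adgre1 the macrophage surface protein F4/80, and Ms4a7 a membrane-spanning protein typical of monocyte-derived and tissue macrophages. Lyz2, Mpeg1, Cd68 and Laptm5 encode proteins of the phagocyte's granules, phagosomes and lysosomes, and Aif1 encodes the actin-binding protein IBA1. In RNA from whole liver, fewer cells of a type and less RNA per cell cannot be told apart.

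Because PU.1 is itself the product of 1 of the 10 genes, promoters of other members were searched for the core of its recognition sequence. RefSeq promoter sequences on GRCm38.p6, matched by symbol, were used for 7 members (9 entries). Each ran from 250 bases before to 50 bases after a start site. Promoters of Adgre1, Csf1r and Spi1 were not searched, so the count for the members says nothing about these genes. The motif GAGGAA, on either strand, stood in 5 of the 9 entries and in 28.3% of 32851 promoters of the same length. Such a match is a description of the letters, not a binding site. A selection of 5 promoters is shown 5′ to 3′ on the strand of the gene, chosen because Mpeg1, Lyz2, Laptm5 and Aif1 had the smallest adjusted p values of the 10 genes without the liver wild type 3, which stands apart, and Cd68 has a match on each side of its start. Capitals mark GAGGAA or its reverse complement TTCCTC.
Mpeg1 (chr19:12460520-12460819, plus strand): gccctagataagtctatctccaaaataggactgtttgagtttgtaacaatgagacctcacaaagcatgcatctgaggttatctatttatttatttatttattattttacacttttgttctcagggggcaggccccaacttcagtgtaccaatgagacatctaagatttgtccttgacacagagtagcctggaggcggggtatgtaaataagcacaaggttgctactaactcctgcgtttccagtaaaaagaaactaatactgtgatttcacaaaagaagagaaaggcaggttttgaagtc
Lyz2 (chr10:117282223-117282522, minus strand): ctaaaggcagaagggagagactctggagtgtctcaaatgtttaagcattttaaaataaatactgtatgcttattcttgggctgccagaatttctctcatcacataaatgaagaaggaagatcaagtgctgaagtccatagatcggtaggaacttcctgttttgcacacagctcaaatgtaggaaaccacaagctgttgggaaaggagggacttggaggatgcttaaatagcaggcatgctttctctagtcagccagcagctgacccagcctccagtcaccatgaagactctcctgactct
Laptm5 (chr4:130913066-130913365, plus strand): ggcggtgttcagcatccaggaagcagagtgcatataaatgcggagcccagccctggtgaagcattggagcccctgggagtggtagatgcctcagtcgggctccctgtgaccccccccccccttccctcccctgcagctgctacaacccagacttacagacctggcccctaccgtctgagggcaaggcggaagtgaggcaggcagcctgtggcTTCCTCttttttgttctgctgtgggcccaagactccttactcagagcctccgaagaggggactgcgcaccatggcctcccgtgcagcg
Aif1 (chr17:35176003-35176302, minus strand): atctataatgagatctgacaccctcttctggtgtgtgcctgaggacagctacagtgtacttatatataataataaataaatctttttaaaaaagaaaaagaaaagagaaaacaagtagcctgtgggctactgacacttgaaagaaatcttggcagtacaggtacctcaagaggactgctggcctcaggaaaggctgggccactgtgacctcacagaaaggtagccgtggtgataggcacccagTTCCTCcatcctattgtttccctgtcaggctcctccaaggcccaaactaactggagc
Cd68 (chr11:69666121-69666420, minus strand): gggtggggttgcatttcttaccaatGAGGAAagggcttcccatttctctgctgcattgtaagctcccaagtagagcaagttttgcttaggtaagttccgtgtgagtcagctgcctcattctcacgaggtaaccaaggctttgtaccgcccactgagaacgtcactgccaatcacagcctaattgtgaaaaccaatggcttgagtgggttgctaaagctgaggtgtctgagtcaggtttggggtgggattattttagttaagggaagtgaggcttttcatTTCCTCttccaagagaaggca
Laptm5 and Aif1 each hold 1 match, Cd68 holds 2, and the letters do not occur in the windows of Mpeg1 and Lyz2.

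Values are normalised read counts, that is, reads per gene divided by a size factor per liver. Between 15006773 and 18238932 reads per liver were recovered. Of 12 hepatocyte markers listed, 12 passed the filter of a mean of 10. The liver wild type 3 stood apart from the rest: its median correlation with the other livers over genes was 0.918, against 0.964 or more for each of the other 8, and results are therefore given with and without it. Msr1 itself did not check the labels clearly. It stood at 256, 202, 460 and 194 in wild type 1 to 4 and at 157, 153, 209, 186 and 172 in the 5 livers labelled Msr1-/-, a difference of -0.58 on the log2 scale (two-sided exact permutation p = 0.0476, where 126 splits allow 0.0159 at the least). Without wild type 3 the difference was -0.31 (exact permutation p = 0.107, where 56 splits allow 0.0357), and the p was also above 0.05 without any 1 of the other wild-type livers (0.0714 to 0.107) or any 1 of the Msr1-/- livers except Msr1-/- 3 (0.0857). Totals per gene carry no exon positions, and every direction given here rests on the genotype as labelled.

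All 10 myeloid genes had lower mean levels in the livers labelled Msr1-/-, by 1.55-fold to 3.22-fold on the log2(value + 1) scale, with a median log2 difference of -1.13 (Msr1-/- minus wild type) against 0.02 over the 12937 tested genes, of which 47.3% had a negative difference. Each of the 10 had an unadjusted limma p under 0.05, as 8% of tested genes had in this direction. In 7 of the 10 genes, Cd68, Lyz2, Mpeg1, Ptprc, Spi1, Aif1 and Laptm5, every Msr1-/- liver lay below every wild-type liver, a pattern found in 3.99% of all tested genes; the opposite pattern was found in 3.3% and in no member. At an adjusted p under 0.05 in limma, however, only Mpeg1 fell, 1 of 10 where 0.703% of all tested genes were called lower, and 0 of 10 rose, where 0.665% were called higher. Without wild type 3 the differences were smaller (median -0.80) and the spread between wild-type livers narrower, and 6 of the 10 fell, Lyz2, Mpeg1, Ptprc, Spi1, Aif1 and Laptm5, where 2.32% of genes were called lower, and 0 rose, where 2.59% were called higher. Leaving out wild type 3 cannot change which of the 10 overlap, since it was the highest liver in each of them, and 6.71% of genes showed the pattern without it.

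**Figure D1:**
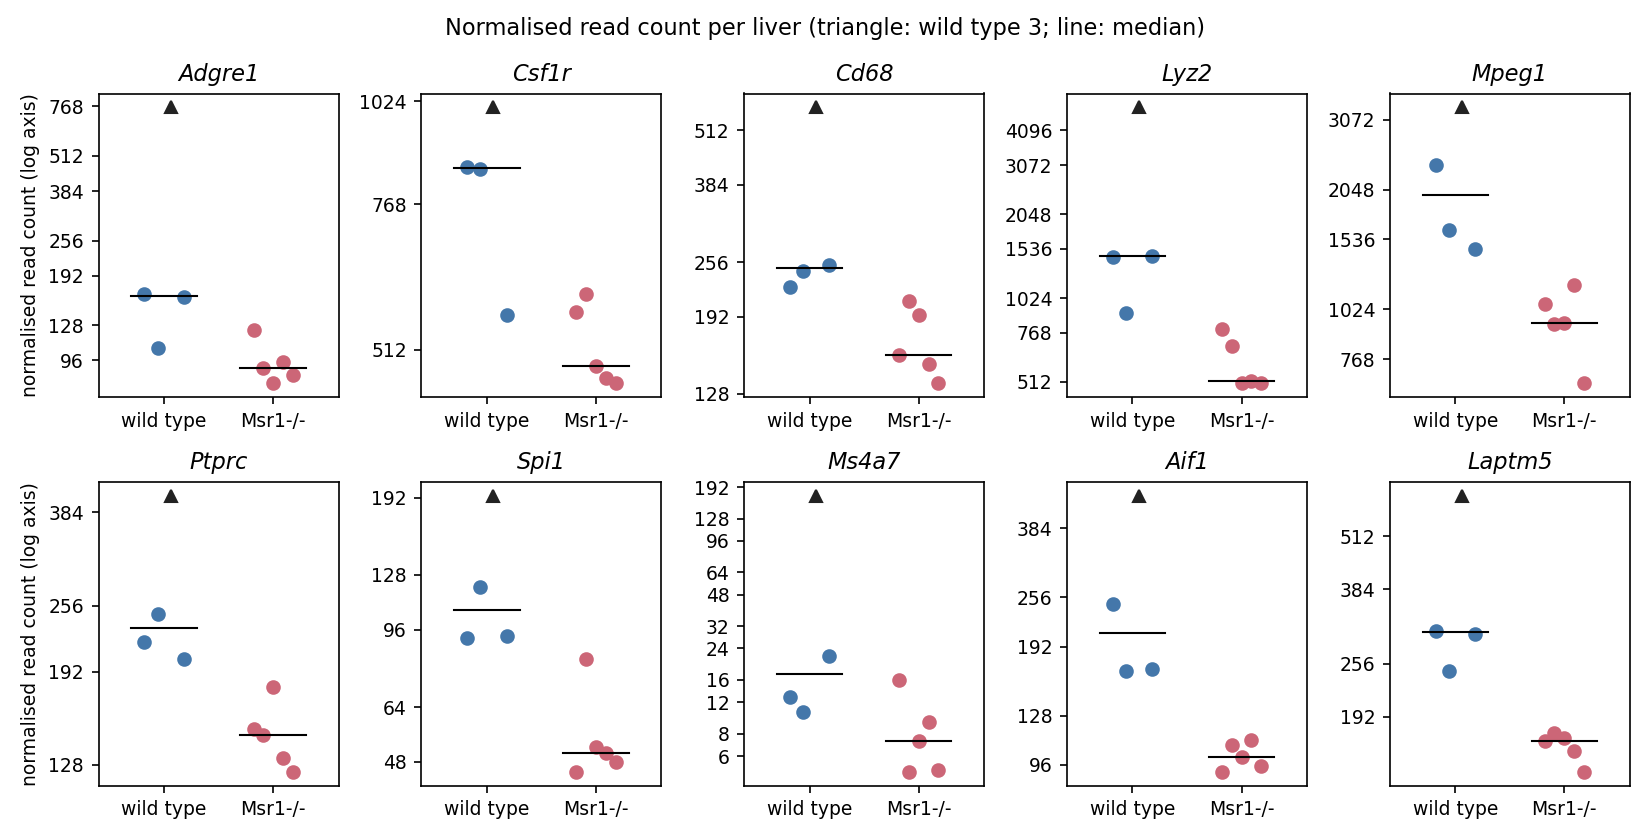
Normalised read count (log axis, scaled per gene) of each of the 10 genes in the 4 wild-type and 5 Msr1-/- livers. Each point is 1 liver, the triangle is wild type 3 and the line is the group median; wild type 3 is the highest liver in 10 of 10 panels, and the genotypes overlap in Adgre1, Csf1r and Ms4a7 only.

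The transcription factor gene Spi1 (chr2:91082390-91115756, plus strand, GRCm38) stood at 92.0, 120, 194 and 93.0 in wild type 1 to 4 and at 45.6, 82.2, 52.1, 50.3 and 48.1 in Msr1-/- 1 to 5. Of the 5 Msr1-/- livers 4 lay close together, and Msr1-/- 2 came near the lowest wild-type liver, without overlap. The log2 difference was -1.12 ± 0.25 (SE; limma adjusted p = 0.0577), and -0.88 without wild type 3, where Spi1 fell (adjusted p = 0.036). Csf1r, whose product receives the colony-stimulating factor signal, stood at 851, 847, 1006 and 564 against 568, 598, 489, 472 and 466. Here wild type 4 lay below 2 of the Msr1-/- livers, and wild type 3 was only 1.33-fold above the mean of the other 3. With a log2 difference of -0.63 ± 0.16 (SE) Csf1r had the smallest difference of the 10 and did not pass (adjusted p = 0.0869, and 0.0804 without wild type 3), but it passed without wild type 4 (limma adjusted p = 0.0266). Of its exon bases, 15.1% are shared with Hmgxb3 on the opposite strand, a gene at 52.8 to 106 in these livers. Since no strand setting of the counting is given in the sources used here, how reads of the shared stretch were counted is not known.

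Among the surface proteins, Ptprc (chr1:138062861-138175708, minus strand), which is expressed by nucleated blood cells, stood at 218, 247, 413 and 203 in wild type and at 149, 146, 180, 132 and 124 in Msr1-/-. The groups did not overlap, and the gap between the lowest wild-type and the highest Msr1-/- liver was small beside the spread. Its log2 difference was -0.83 ± 0.21 (SE; adjusted p = 0.0763); without wild type 3 Ptprc fell 1.53-fold (adjusted p = 0.0364). Adgre1 (chr17:57358691-57483527, plus strand) stood at 165, 107, 763 and 161 against 123, 90.0, 79.4, 94.7 and 85.2. Most of its wild-type mean of 299 ± 310 (SD, n = 4) came from wild type 3, 4.63-fold above the next liver, and wild type 2 lay below Msr1-/- 1. The log2 difference of Adgre1 was -1.20 with wild type 3 and -0.59 without it, and passed in neither fit (adjusted p = 0.234 and 0.103).

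Ms4a7 (chr19:11321039-11336146, minus strand) was the most uneven of the 10. Its values were 12.8, 10.6, 172 and 21.8 in wild type and 15.9, 4.89, 7.31, 9.35 and 5.01 in Msr1-/-, from 5 to 219 reads per liver. Wild type 3 stood 11.4-fold above the mean of the other 3 wild-type livers, and those 3 overlapped the Msr1-/- livers, where Msr1-/- 1 was the highest. The log2 difference of -1.69 was the largest of the 10 and also the least precise (95% interval -3.26 to -0.11, adjusted p = 0.287). Without wild type 3 it was -0.81 (95% interval -1.74 to 0.11, adjusted p = 0.295), so a genotype difference in Ms4a7 was not detectable with these livers.

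Of the genes for granule, phagosome and lysosome proteins, Mpeg1 (chr19:12460779-12465283, plus strand), which encodes the pore-forming protein perforin-2 of phagocytes, stood at 2356, 1626, 3298 and 1449 in wild type and at 1057, 941, 946, 1179 and 667 in Msr1-/-. It was the only member whose fall passed with all 9 livers, 2.20-fold (log2 difference -1.13 ± 0.24 SE, adjusted p = 0.0491), just inside the threshold. Its call was lost without wild type 1 (limma adjusted p = 0.112), without wild type 2 (0.0652) or without any 1 of the Msr1-/- livers (0.0795 to 0.113), while the log2 difference stayed between -1.31 and -0.91. It was also lost with only genes of a mean of 50 or more tested (adjusted p = 0.0563). Lyz2 (chr10:117277331-117282321, minus strand), the lysozyme of macrophages and neutrophils, stood at 1440, 904, 4949 and 1451 against 795, 690, 508, 516 and 506. Wild type 3 was 3.91-fold above the mean of the other wild-type livers, and Msr1-/- 1 and 2 lay above the other 3 Msr1-/- livers. With all 9 livers the log2 difference was -1.56 ± 0.40 (SE, adjusted p = 0.081); without wild type 3 Lyz2 fell 2.09-fold (log2 difference -1.06, adjusted p = 0.0133). Its neighbour Lyz1, a close copy, shares 15.4% of the 50-base words of Lyz2 transcripts and stood at no more than 5.49 in any liver.

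Cd68 (chr11:69664213-69666153, minus strand), a glycoprotein of endosomes and lysosomes, had the tightest wild-type values outside wild type 3, at 225, 244 and 251, beside 577 in wild type 3. Its Msr1-/- values were 157, 208, 194, 150 and 135, all lower, but Cd68 passed in neither fit (log2 difference -0.84 with adjusted p = 0.153, and -0.52 with 0.0835 without wild type 3). Laptm5 (chr4:130913125-130936141, plus strand), a lysosomal membrane protein of blood cells, stood at 307, 246, 639 and 301 against 169, 176, 171, 159 and 142. The Msr1-/- livers varied by only 8.15% (coefficient of variation) and lay well clear of the lowest wild-type liver. Its adjusted p was 0.052 with all 9 livers (log2 difference -1.09 ± 0.24 SE) and 0.00789 without wild type 3, where Laptm5 fell 1.73-fold. Aif1 (chr17:35170991-35176068, minus strand) stood at 246, 167, 464 and 169 against 92.2, 108, 100.4, 111 and 95.2, with a coefficient of variation of 7.91% in Msr1-/-. Its log2 difference was -1.23 ± 0.27 (SE, adjusted p = 0.0518), and without wild type 3 Aif1 fell 1.88-fold (adjusted p = 0.00998); it also passed without wild type 4 (adjusted p = 0.0459).

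**Figure D2:**
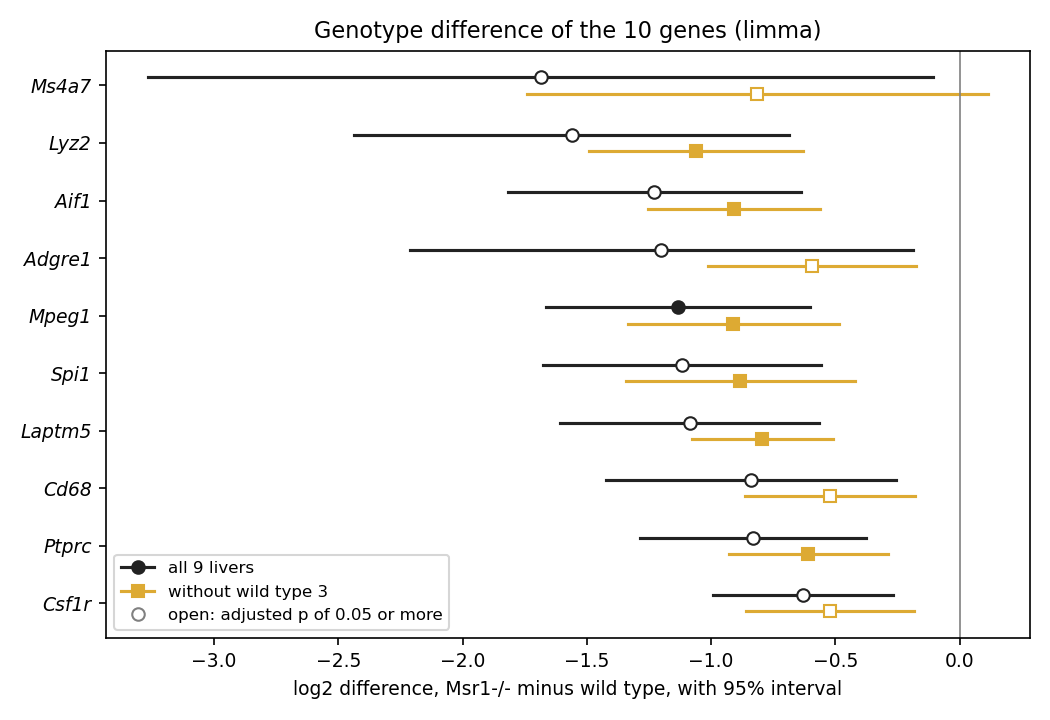
Log2 difference (Msr1-/- minus wild type) of each gene with its 95% interval from limma, for all 9 livers (black circles) and without wild type 3 (yellow squares); filled symbols have an adjusted p under 0.05. With all 9 livers 1 symbol is filled (Mpeg1) and without wild type 3 there are 6, and each estimate moves towards 0 without wild type 3 while its interval narrows.

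The count of members called also differed between tests. On the recovered reads of all 9 livers, edgeR's quasi-likelihood test called 3 of 10 lower (Mpeg1, Aif1 and Laptm5, where 0.858% of genes were called lower), and DESeq2 called 9 of the 9 with an adjusted p (3.62% of genes), giving none for Ms4a7. Limma with weights estimated per liver called the same 6 genes as limma without wild type 3, where 1.96% of genes were called lower. No member was called higher by any of these.

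Wild type 3 was the highest of the 9 livers in 10 of 10 members, as it was in 26.5% of all tested genes. The excess was not alike across the genes. Against the mean of the other 3 wild-type livers it was 11.4-fold for Ms4a7, 5.29-fold for Adgre1 and 3.91-fold for Lyz2, 2.41-fold for Cd68, 2.40-fold for Aif1, 2.24-fold for Laptm5, 1.90-fold for Spi1, 1.85-fold for Ptprc, 1.82-fold for Mpeg1 and 1.33-fold for Csf1r. It was over 2-fold in 6 of the 10 genes and in 10.3% of all tested genes. Among the other 8 livers the mean of the 10 genes, each centred on its own mean over the 9 livers, lay between 0.14 and 0.37 on the log2 scale in wild type 1, 2 and 4 and between -0.75 and -0.33 in Msr1-/-, with Msr1-/- 5 the lowest; wild type 3 stood at 1.74.

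**Figure D3:**
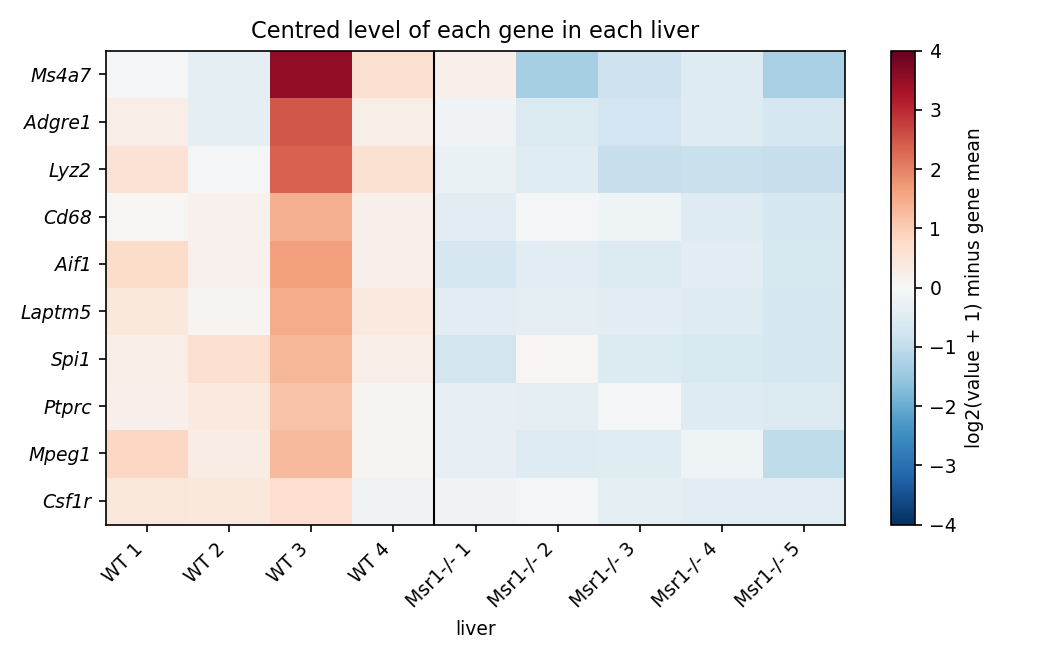
Log2(value + 1) of each gene in each liver minus the gene's mean over the 9 livers, with genes ordered by the excess of wild type 3 over the other wild-type livers. The column of wild type 3 goes from dark at Ms4a7 (11.4-fold) to pale at Csf1r (1.33-fold), and the 5 Msr1-/- columns are blue except for Ms4a7 in Msr1-/- 1 and Spi1 in Msr1-/- 2.

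Compared per kilobase of exon (union of GENCODE M21 exons on GRCm38), Lyz2 had the highest level in both genotypes, with a median of 1099 normalised reads per kilobase in wild type and 392 in Msr1-/-. Mpeg1 followed at 459 and 218, then Cd68 at 197 and 125. Csf1r (147 and 84.6) and Aif1 (135 and 65.6) came next; their ranges overlapped in wild type, at 97.6 to 174 and 109 to 303, and not in Msr1-/-, at 80.7 to 104 and 60.2 to 72.5. Laptm5, Adgre1, Spi1, Ptprc and Ms4a7 followed in this order in both genotypes, down to medians of 3.89 and 1.64 for Ms4a7. Neighbours in this order overlapped in wild type except Cd68 with Csf1r and Spi1 with Ptprc, and in Msr1-/- the overlaps were those of Mpeg1 with Cd68, Laptm5 with Adgre1 and Adgre1 with Spi1. The exon union of Ptprc is 18313 bases long, and its level per kilobase depends on that length.

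By the mean absolute difference between centred log2 levels over the 9 livers, Laptm5 was nearest to the common profile of the 10 genes (0.09) and Ms4a7 the farthest (0.60). The closest pair was Cd68 with Laptm5 (0.14) and the least alike was Csf1r with Ms4a7 (0.89). Outside the 10, the 8 genes nearest to the common profile included Tmsb4x (thymosin beta 4, an actin-sequestering peptide; 0.08), AB124611 (0.08), Sirpa (a macrophage receptor for CD47; 0.10), Treml4 (0.10), the hyaluronan receptor gene Cd44 (0.11), the tetraspanin gene Cd53 (0.11) and the formyl peptide receptor gene Fpr1 (0.11). All 9 livers enter this measure, and wild type 3 weighs most in it. Of these, Tmsb4x stood at 3071, 2195, 7713 and 2812 in wild type and between 1524 and 1823 in Msr1-/-, without overlap; since it was chosen for its likeness to the 10 genes, this is a description and no further support.

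The genes that act with the 10 in myeloid cells were counted from lists. Of 7 tested colony-stimulating factors and receptors, none passed with all 9 livers (6 negative, median log2 difference -0.37). The granulocyte receptor gene Csf3r stood at 84.2 ± 19.0 (SD, n = 4) against 42.3 ± 7.81 (n = 5), and Csf2rb2, a receptor chain for interleukin-3, at 44.8 ± 13.2 against 16.2 ± 5.26 (adjusted p = 0.0517 and 0.0561); both fell without wild type 3 (adjusted p = 0.0403 and 0.0482). Among 13 tested myeloid transcription factors none passed (10 negative, median -0.27). Irf5, a regulator of inflammatory macrophages, stood at 267 ± 35.1 against 151 ± 44.0 and was not highest in wild type 3, at 228; Irf5 alone of this list fell without wild type 3 (adjusted p = 0.0335). Ikzf1 stood at 62.1 ± 27.6 against 30.8 ± 8.64 (adjusted p = 0.153).

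All 16 adaptors, kinases and phosphatases downstream of myeloid receptors were negative (median -0.93), and 1 fell with all 9 livers, the Fc receptor gamma chain gene Fcer1g, from 479 ± 157 to 229 ± 34.3 (2.04-fold, adjusted p = 0.0316). Without wild type 3, 15 were negative and 5 fell (median -0.66). All 16 pan-leukocyte genes were negative too (median -0.96), and Cd52 and Cd37 fell, from 332 ± 135 to 139 ± 12.9 (adjusted p = 0.0308) and from 69.0 ± 5.55 to 34.1 ± 6.13 (adjusted p = 0.0269). Cd37, a tetraspanin gene of leukocytes, was even among the wild-type livers (64.2 to 76.9). Without wild type 3, 15 of this list were negative (median -0.62) and 5 fell. Of 15 phagosome and lysosome genes, 12 were negative (median -0.90) and 1 fell, Ncf1, a subunit of the phagocyte oxidase, from 115 ± 46.7 to 45.5 ± 5.15 (adjusted p = 0.0291); 4 fell without wild type 3, including the metal transporter gene Slc11a1 (adjusted p = 0.0251, and 0.0533 with all 9 livers). Summed, however, this list overlapped between the genotypes and was not lower in Msr1-/-. The sums ran from 18151 to 32604 in wild type (median 22837) and from 20711 to 28758 in Msr1-/- (median 23967).

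The other MS4A genes did not share the unevenness of Ms4a7 in full. With all 9 livers 8 of 8 tested were negative (median -0.79) and none passed; wild type 3 was the highest liver in 5 of them, and without it 5 of 7 were negative (median -0.63) and 2 fell. Ms4a6d stood at 51.3, 36.9, 123 and 36.0 in wild type and between 18.7 and 21.0 in the 5 Msr1-/- livers, apart in every liver, and fell without wild type 3 (adjusted p = 0.0229). Ms4a6b stood at 45.5 ± 23.3 against 19.7 ± 5.84 (adjusted p = 0.174).

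Markers of the cell types that can contribute these transcripts also had mostly negative differences, and their part in the differences of the 10 genes was not tested. Summed over a list, the 16 monocyte markers ran from 626 to 2459 in wild type and from 414 to 546 in Msr1-/-, and without wild type 3 the wild-type maximum was 880. Of the 11 tested, 10 were negative (median -1.12) and none passed with all 9 livers, while 3 fell without wild type 3. Among them Cx3cr1, the fractalkine receptor gene, stood at 24.6, 12.7, 111 and 18.0 against 4.57 to 9.35 (adjusted p = 0.0928, and 0.0488 without wild type 3), and Treml4 at 158 ± 90.2 against 66.2 ± 12.5 (0.0885 and 0.0364). The 16 Kupffer cell markers summed to between 16573 and 27424 in wild type and between 12363 and 16771 in Msr1-/-. Of these 16, 15 were negative (median -0.74) and 2 fell, Spic (from 98.3 ± 48.0 to 33.5 ± 3.05) and C1qa (from 1455 ± 452 to 748 ± 100), with adjusted p = 0.0307 and 0.0355. Leaving out wild type 3 gave a wild-type maximum of 20479 for the Kupffer list, with 15 of 16 negative (median -0.64) and 5 falling. All 12 lipid-associated macrophage markers were negative (median -1.21) and 2 fell, Fabp5 and Lpl (adjusted p = 0.01 and 0.041), with sums of 11964 to 26503 against 10873 to 12736. Without wild type 3, which had the highest sum, the wild-type maximum of this list was 15641, 8 of 11 were negative (median -0.73) and 4 fell. None of the listed markers was at 0 in all 9 livers.

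The summed lymphocyte and neutrophil markers were not highest in wild type 3, although 2 of the 3 tested neutrophil genes and 1 of the 8 B and plasma cell genes were. B and plasma cell markers summed to between 651 and 1030 in wild type, with the lowest value in wild type 3, and to between 246 and 448 in Msr1-/-. All 8 tested were negative (median -0.97), and, of these, Igkc alone fell, from 398 ± 123 to 118 ± 39.8 (adjusted p = 0.0226), while Ighm stood at 215 ± 59.8 against 88.9 ± 38.0 (0.0618, and 0.0415 without wild type 3, where it fell). T and NK cell markers summed to 198 in wild type 3, between 250 and 337 in the other wild-type livers and between 128 and 221 in Msr1-/-, with 8 of 8 tested negative and none called; Klrk1 stood at 46.5 ± 10.7 against 25.7 ± 1.77 (adjusted p = 0.0753, and 0.0417 without wild type 3, where it fell) and Cd2 at 16.9 ± 9.47 against 10.1 ± 2.45 (0.562). The neutrophil list, 9 of 13 found in the table, summed to 78.7 to 277 against 39.8 to 88.0. Of its 3 tested genes Prtn3 fell (adjusted p = 0.0316, and 0.059 with a pseudocount of 5, where the call was lost), from 65.2, 92.8, 8.63 and 7.59 to at most 1.96, and S100a8 stood at 51.4 ± 26.7 against 11.4 ± 5.15 (0.0804). Lyz2 and Csf3r are also expressed by neutrophils, and Ptprc and Laptm5 by lymphocytes.

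Of the 10 genes called with all 9 livers in these lists (Fcer1g, Cd52, Cd37, Ncf1, Spic, C1qa, Fabp5, Lpl, Igkc and Prtn3), Fabp5 alone kept its call with each liver left out in turn (limma adjusted p up to 0.0398). The others lost theirs without wild type 1 and without Msr1-/- 1, 4 or 5. Fcer1g, Ncf1, C1qa, Lpl and Prtn3 also lost theirs without Msr1-/- 2 or 3, Cd52 and Spic likewise, Cd37 without Msr1-/- 2 and Igkc without Msr1-/- 3. Fcer1g, Cd37, Ncf1, C1qa, Igkc and Prtn3 further lost theirs without wild type 2, and Lpl without wild type 4. The highest adjusted p in those fits was 0.107, for Lpl.

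Dendritic cell, endothelial, stellate and hepatocyte lists held no called gene in either fit. The 4 tested dendritic cell genes had a median of -0.25, with Batf3 at 27.7 ± 3.24 against 14.6 ± 7.18 (adjusted p = 0.174) and Clec9a at 86.3 ± 22.5 against 61.7 ± 12.7 (0.345). For 11 sinusoidal endothelial genes the median was -0.01 (7 negative), and 0.08 without wild type 3 (4 negative). Mrc1 stood at 753 ± 94.5 against 607 ± 96.0 (adjusted p = 0.307) and Fcgr2b at 1066 ± 216 against 937 ± 55.9 (0.657). The median was -0.38 for 11 stellate cell genes, and -0.10 without wild type 3, with Reln at 619 ± 50.4 against 499 ± 42.0 (adjusted p = 0.191) and Pdgfrb at 137 ± 50.7 against 82.8 ± 19.2 (0.213). For 12 hepatocyte genes it was 0.13, and Cyp2e1 stood at 25516 in wild type 3 against 77373 to 126665 in the other wild-type livers and 114784 to 150140 in Msr1-/- (adjusted p = 0.311). Pck1 stood at 15159 ± 7210 against 24969 ± 6862 (adjusted p = 0.286).

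**Figure D4:**
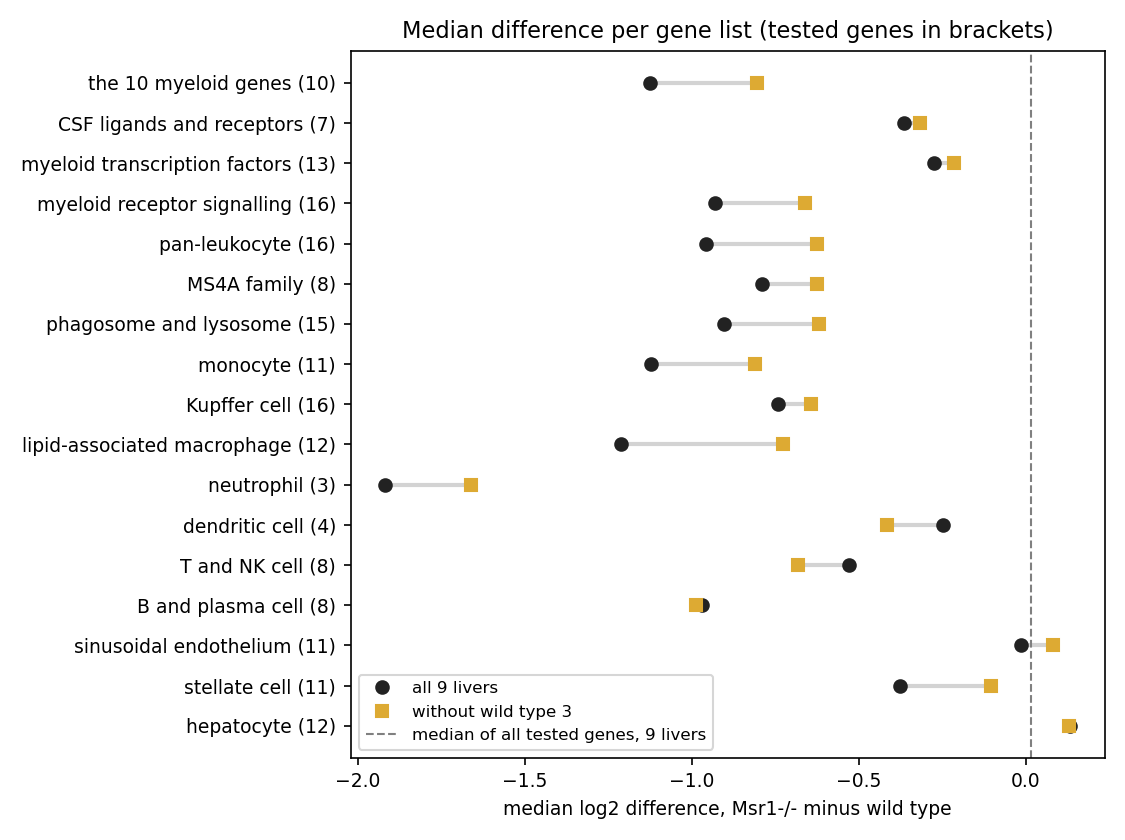
Median log2 difference (Msr1-/- minus wild type) of each gene list with all 9 livers (black circles) and without wild type 3 (yellow squares); brackets give the number of genes tested with all 9 livers and the dashed line is the median of all tested genes (0.02). The 10 myeloid genes stand at -1.13 and -0.80, and with all 9 livers the endothelial list stands at -0.01 and the hepatocyte list at 0.13.

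Ms4a7 was set against Clec4f, a lectin gene specific to Kupffer cells in mouse liver, in each liver. Clec4f stood at 2638, 2504, 1845 and 1634 in wild type and at 1519, 1486, 1395, 1285 and 1190 in Msr1-/-, so wild type 1 and 2 lay above wild type 3 for this gene (adjusted p = 0.0766, and 0.0305 without wild type 3, where Clec4f fell 1.61-fold). The log2 ratio of Ms4a7 to Clec4f was -7.58, -7.76, -3.42 and -6.16 in wild type and -6.49, -7.98, -7.39, -6.96 and -7.63 in Msr1-/-. Wild type 3 alone stood far above the rest, and the other 8 livers mixed across genotypes. The genotype difference was -1.06 (two-sided exact permutation p = 0.349, where 0.0159 is the smallest possible) and -0.12 without wild type 3 (exact permutation p = 0.786).

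**Figure D5:**
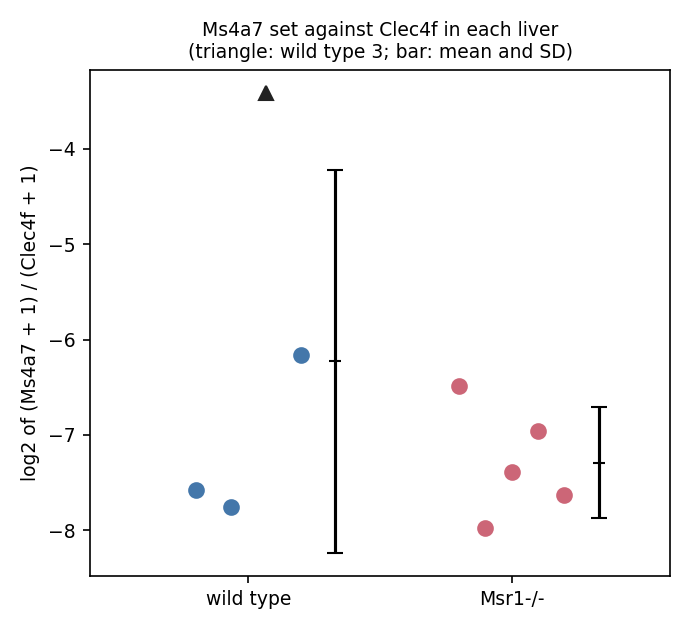
Log2 of the ratio of Ms4a7 to Clec4f (each plus 1) in the 4 wild-type and 5 Msr1-/- livers, 1 point per liver, with the mean and SD of each genotype beside the points. Wild type 3 (triangle) stands at -3.42 and the other 8 livers between -7.98 and -6.16.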

How the data were processed

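Whole-liver RNA from 9 mice was sequenced as TruSeq libraries, per the labels' protocols. The submitters' processing notes list STAR, HTSeq, DESeq2 and the mm10 build without versions, and the strand setting is not given in the sources used here. The authors deposited 1 table of signal per gene and liver, in which each count had been divided by a scaling factor; 100% of values were whole multiples of 1 step per liver (tolerance 0.01 reads), so whole reads were recovered. The step of Msr1-/- 5 lies close to 1, and its values were whole multiples of it as in the other livers.

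Genotype and animal number came from the sample titles. Values were taken as log2(value + 1), genes with a mean of 10 or more (12937) were tested with limma 3.58.1 (R 4.3.3, intensity trend, genotype as the only term), and p values were Benjamini-Hochberg adjusted over all tested genes. Adjusted p values without a named tool are limma's. Single values were tested by exact permutation. The members and gene lists were chosen with earlier results of these data known. Named genes are the members, Msr1, Clec4f, Lyz1, the 2 smallest p values in each of 16 lists and the 8 genes nearest the members' profile; 1 gene that this rule names is not reported here. Alternatives were pseudocounts of 0.5 and 5, no filter or a mean of 50, TMM and quantile scaling, edgeR 4.0.16, DESeq2 1.42.0, weights per liver, a block for the animal number, and leaving out 1 liver at a time. The limma script was tested on simulated counts. No 2 libraries were duplicates (lowest chi-square per degree of freedom 19.7).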

Additional observations from a re-analysis of the deposited data

Results flagged for a closer look

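A liver was singled out where its gap to the nearest liver of its genotype took up most of that genotype's log2 range (Dixon's test at its 95% critical value). Chance alone gives about 1 in 20 such groups. Here 10 of 102 groups were singled out, 8 of them for wild type 3, but Treml4, AB124611, Sirpa and Fpr1 were named for a profile in which wild type 3 is high, so the count cannot be read against that rate. Among the 10 genes these were Cd68, at 577 in wild type 3 above 225, 244 and 251 in the other wild-type livers, and Spi1, at 82.2 in Msr1-/- 2 beside 45.6 to 52.1 in the other Msr1-/- livers. Wild type 3 also stood high in Fcer1g (715), Ncf1 (184), Treml4 (293), AB124611 (228), Sirpa (1096) and Fpr1 (158), and low in Igkc (217). Wild type 1 stood low in Reln (544).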

How the results depend on the processing

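Each member was refitted under 19 alternatives (Ms4a7 under 17), and 0 of these 188 values changed sign. The count of members called lower, 1 as reported, was 0 with a mean of 50 or more, 3 with edgeR, 9 with DESeq2 and 6 with array weights, and ran from 0 to 6 with 1 liver left out: 6 when wild type 3 was dropped, 3 when wild type 4 was, and 0 for any other liver. The 177 genes called in all became 773 with DESeq2 and 531 with array weights, and between 36 (without Msr1-/- 2) and 629 (without wild type 3) with 1 liver left out. In the fits with 0 members called, fewer genes were called in all. They were 127 with a mean of 50 or more, 87 without wild type 1 and 64 without wild type 2. Without Msr1-/- 1 to 5 they were 46, 36, 50, 47 and 65, so a count of 0 there is no result about the members. Without wild type 4, where 3 members were called lower, 192 genes were called in all, 72 of them higher. With the animal number as a replicate block (8 livers) 10 genes and 0 members were called. The numbers were not taken as pairs in the main fit, since the labels state no pairing. Same-numbered animals deviated together at correlations of 0.0246, -0.077, -0.102 and 0.218, too few to decide whether the animals were paired. The median of the members ran from -1.27 to -0.80 with 1 liver left out. The Msr1 difference missed the threshold under quantile scaling (-0.58, exact permutation p = 0.0635) and ran from -0.72 to -0.31 with 1 liver left out; the Ms4a7 to Clec4f difference ran from -1.57 to -0.12 and passed in no setting. With TMM or quantile scaling, 0 members and 0 other named genes changed sign; the medians of the lists were not recomputed under either scaling. Ms4a7 was not tested at a mean of 50 or more, and at 5 to 219 reads per liver it was the member with the fewest reads. The causes of these changes were not tested.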
